A study of Mus musculus with 8 samples.

Results

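The genes that encode the proteins of the cytosolic ribosome were followed in mouse liver by RNA-seq of total RNA from which ribosomal RNA had been removed. Members were the rows whose symbol has the form of a ribosomal protein name, Rpl for the large and Rps for the small subunit, with symbols of pseudogenes (-ps) left out. The rule found 88 genes of 56077 rows in the count table, 54 of the large and 34 of the small subunit. Of these, 84 are annotated as protein-coding and 4 as pseudogenes, namely Rps12l1, Rps4l, Rpl6l and Rpl32l. Counts were sufficient to test 83 members, 49 of the large and 34 of the small subunit. The 5 others (Rpl3l, Rpl39l, Rpl10l, Rpl6l and Rpl32l) had 0 to 3 counts in any library, and Rpl3l, Rpl39l and Rpl10l are paralogs known from striated muscle or testis.

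Livers came from 6-month-old C57BL/6 mice heterozygous for eIF2α, a subunit of translation initiation factor 2. Their genotype is written as Eif2a flox/+ for the gene now named Eif2s1, and no recombinase is given in the labels, which also describe both groups as lean wild-type animals. They were set against wild-type mice of the same age and strain, and both groups had free access to food and a cycle of 12 h light and 12 h dark. Each group had 4 livers, called H11, H12, H15 and H75 for heterozygous mice and W32, W33, W76 and W90 for wild-type mice, and the comparison asks how the heterozygous liver transcriptome differs. No label ties a library to a litter or a day, so the p-values measure the spread between these samples.

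A eukaryotic ribosome carries a single copy of most of its proteins, so cells need the members in matched amounts. Their mRNAs begin with a run of pyrimidines, the 5′ terminal oligopyrimidine (TOP) motif, through which mTORC1 signalling and the La-related protein LARP1 set how strongly they are translated. Many of the genes also carry small nucleolar RNAs (snoRNAs), which guide the modification of ribosomal RNA, in their introns. In liver, ribosome content follows feeding and growth signals.

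The TOP motif lies at the start of transcription, and this stretch is shown for 5 members in which a pyrimidine run was found at the annotated start and for 4 in which none was found there. The first set and Rpsa and Rpl41 are the 7 members of lowest p with a promoter entry in RefSeq, and Rps12 and Rps13 had the lowest fold changes, so they were chosen after their values were seen. Each line holds 60 bases of GRCm38.p6, 40 before and 20 after the start given by RefSeq, written 5′ to 3′ on the strand of the gene. Capitals mark a pyrimidine run of at least 5 bases, counted from a C within 5 bases of that start. Pyrimidines that stand directly before this C, as in Rpl35, are left in lower case.
Rpl27a, chr7:109519155-109519214, plus strand: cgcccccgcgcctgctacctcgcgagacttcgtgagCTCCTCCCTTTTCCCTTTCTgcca
Rpl22l1, chr3:28805468-28805527, plus strand: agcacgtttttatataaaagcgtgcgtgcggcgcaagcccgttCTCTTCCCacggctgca
Rpl35, chr2:39005112-39005171, minus strand: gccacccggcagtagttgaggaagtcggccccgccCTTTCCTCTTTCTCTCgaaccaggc
Rplp2, chr7:141447611-141447670, plus strand: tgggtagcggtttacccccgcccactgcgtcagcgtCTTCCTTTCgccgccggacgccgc
Rps2, chr17:24720023-24720082, plus strand: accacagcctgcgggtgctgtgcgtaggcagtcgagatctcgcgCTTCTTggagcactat

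In the next 4 members no such run begins within 5 bases of the annotated start, so they carry no capitals, although pyrimidine runs can lie elsewhere in the lines.
Rpsa, chr9:120127726-120127785, plus strand: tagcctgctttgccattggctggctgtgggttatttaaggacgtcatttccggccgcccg
Rpl41, chr10:128549149-128549208, minus strand: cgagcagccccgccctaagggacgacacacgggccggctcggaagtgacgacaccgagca
Rps12, chr10:23787190-23787249, minus strand: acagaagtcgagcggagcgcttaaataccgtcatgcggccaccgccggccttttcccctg
Rps13, chr7:116334171-116334230, minus strand: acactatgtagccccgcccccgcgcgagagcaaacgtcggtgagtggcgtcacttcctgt

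Of the 83 tested members, 61 had at least 1 promoter entry, with 72 promoters in all. The run stood at the start of 43.1% of these promoters, against 18.3% of the other mouse promoters in the table. CCGGAA, the core recognised by transcription factors of the ETS family, was found on either strand within the 300 bases of 48.6% of member promoters and 14.8% of the others. CTTCCG, which shares bases with the reverse complement of CCGGAA, was found on either strand in 62.5% of member promoters and 16.8% of the others. The pair together covered 70.8% of member promoters and 21.8% of the others. TATAA, the core of the TATA box, was about as frequent among member promoters (23.6%) as among the others (24.9%). GGGCGG, bound by Sp1-type factors, was found in 62.5% of member promoters and 35.6% of the others. CACGTG, the E-box bound by Myc, was found in 11.1% and 7.14%, and AAGATGG, the core bound by YY1, in 16.7% and 6.32%. The 29 members with a pyrimidine run found at the annotated start had a median log2 fold change of 0.28, heterozygous over wild type. The 32 in which none was found there had 0.19. Runs farther from the annotated start were not counted, so these 32 were not shown to lack a TOP motif. The difference was not tested. A second shared feature was the snoRNA. Of 81 tested protein-coding members, 30 (37.0%) overlap an annotated snoRNA, against 174 of 12445 other tested protein-coding genes (1.40%).

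Libraries held 22178028 to 28564399 counts in heterozygous livers and 25626387 to 27799116 in wild-type livers, with scaling factors of 0.8996 to 1.062 and 0.9997 to 1.057. Eif2s1, which checks the labels, had 20.5, 22.3, 20.8 and 25.1 CPM (counts scaled to a common library size) in heterozygous livers and 28.4, 28.8, 32.8 and 30.1 CPM in wild-type livers. The groups did not overlap, and the log2 fold change was -0.44 ± 0.10 (SE). An exact two-sided permutation test gave p = 0.0286, the smallest that 70 assignments allow, and the adjusted p of edgeR over all genes was 0.315. Of 54 markers in 8 lists, none was at 0 in the table. The 8 hepatocyte markers summed to 95573 to 104902 CPM in heterozygous and 82459 to 109612 CPM in wild-type livers. In bulk tissue, fewer cells of a type and less RNA per cell cannot be told apart.

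Ribosomal protein genes stood slightly higher in heterozygous livers, together and by a small amount, but no single gene passed the test. Of 83 tested members, 80 had a positive log2 fold change of heterozygous over wild type, where 51.1% of all genes tested had one. The median was 0.24 (1.18-fold), with quartiles of 0.18 and 0.29, against a median of 0.01 over all 14261 genes. The median standard error of a member was 0.14. In edgeR, 0 members had an adjusted p under 0.05, where 0% of all genes did, and the lowest adjusted p of a member was 0.386. At an unadjusted p under 0.05, 17 members (20.5%) were higher, against 4.90% of all genes, and 0 were lower, against 4.44%. Pairs of members had a median Pearson correlation of 0.92 over the 8 libraries, so these counts of members are not counts of independent observations. DESeq2 and limma-voom also called 0 members, with 21 higher at an unadjusted p under 0.05 in each, where 5.17% and 4.35% of all genes were. DESeq2 called 150 genes in all (1.05%). In the authors' deposited table, 80 of the 83 members had a positive log2 fold change and 0 had an adjusted p under 0.05. The shares over all genes of that table are not given here.

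The size of this difference rested on single libraries. The members' counts made up 1.15, 1.25, 1.27 and 1.31% of the counts in heterozygous libraries H11, H12, H15 and H75. Among wild-type libraries the share was 0.999, 1.19, 0.976 and 1.34% in W32, W33, W76 and W90. The groups overlapped, since the wild-type library W90 had the highest share of all 8, and the means were 1.25 ± 0.0666% in heterozygous and 1.13 ± 0.172% in wild-type livers (SD, n = 4 each). At these depths the 95% Wilson interval was 1.30 to 1.31% for H75 and 0.972 to 0.980% for W76, and such intervals cover counting error only. After scaling, the median member lay 0.06, 0.36, 0.14 and 0.43 log2 units above the wild-type mean in H11, H12, H15 and H75. In W32, W33, W76 and W90 it lay at -0.18, 0.09, -0.18 and 0.27. H12 and H75 were the highest libraries on this scale, W90 came after them and above H11 and H15, and W32 and W76 were the lowest. H75 held the highest value of 66 members, H12 of 15 and W90 of 2, and W32 held the lowest value of 46 and W76 of 32. Without W90, 57 members were higher at an unadjusted p under 0.05 (5.11% of all genes). Without H75 there were 4 such members (3.52% of all genes), without W32 also 4 (3.38%), without W76 5 (3.66%) and without H12 5 (2.99%). The member median stayed between 0.18 and 0.35 whichever library was left out, and 0 members were called, also without H15, where 252 genes (1.74%) were.

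**Figure D1:**
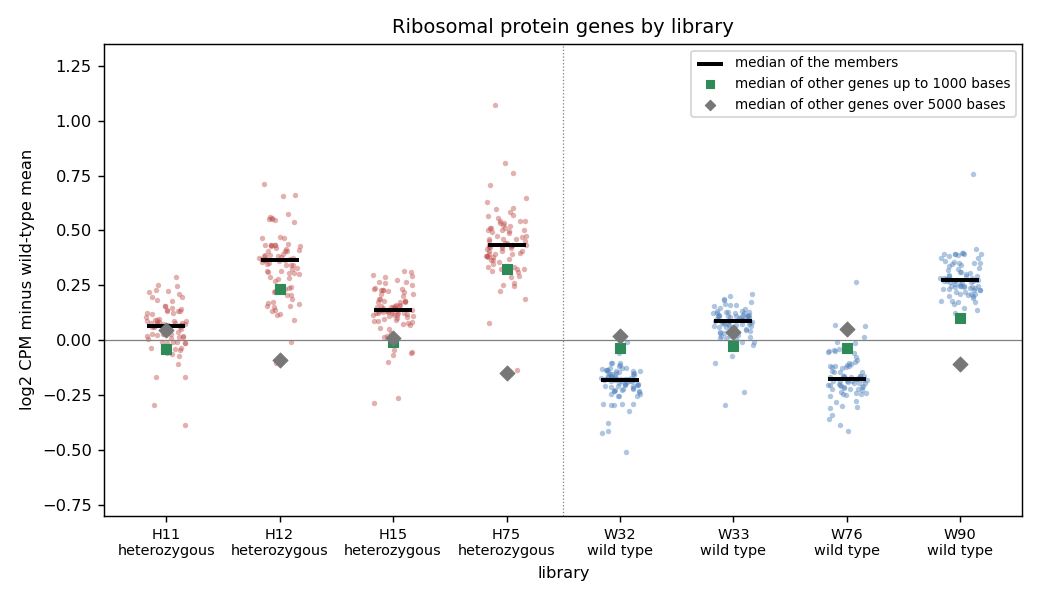
Each point is the log2 CPM of 1 of 82 tested ribosomal protein genes (Rps12l1, under 1.3 CPM, is left out) minus its mean over the 4 wild-type libraries, for heterozygous (red) and wild-type (blue) libraries. Bars are medians of the members, which reach 0.43 in H75 and 0.27 in W90 and lie at -0.18 in W32 and W76. Green squares and grey diamonds are medians of other genes of at least 10 CPM, up to 1000 and over 5000 bases long.

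The plot of the members by library shows that they moved as a block within each library. Over the 8 libraries, the Pearson correlation of 2 members' log2 CPM had a median of 0.92 over 3403 pairs. Against the profile of the median member, 72 of 83 members had r above 0.9, with a median of 0.96, whereas 108 of 7286 other genes of at least 10 CPM did, with a median of 0.08. That profile was built from these same 83 members, so part of their higher r was given in advance. These correlations describe 8 shared libraries and their scaling. Large and small subunit genes kept a steady ratio, the summed large-subunit counts being 1.449 to 1.454 times the small-subunit counts in heterozygous and 1.451 to 1.495 times in wild-type libraries. Among 6988 genes outside the set, those most like the median member were Snrpb, of the spliceosomal core (r = 0.98), Rack1, a protein of the small-subunit head (0.97), Ppp4c, a phosphatase subunit (0.97), Psmb3, of the proteasome (0.97), and Mrpl39, of the mitochondrial ribosome (0.97). Among the least like were Pcx, pyruvate carboxylase (r = -0.98), Ctns, the lysosomal cystine transporter (-0.98), Tln1, which links integrins to actin (-0.97), and Dtx3l, a ubiquitin ligase (-0.97).

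The mitochondrial share of the counts was lower in heterozygous libraries. Mitochondrially encoded genes took 5.98, 5.38, 6.32 and 5.26% of the counts in heterozygous libraries and 7.34, 6.36, 7.18 and 6.44% in wild-type libraries, with no overlap of the groups. H12 and H75, where the members were highest, had the lowest mitochondrial shares, and W32 and W76, where they were lowest, had the highest. H12 and H75 also had the lowest scaling factors, 0.909 and 0.8996, whereas W90 had 1.03. The 6 neutrophil markers summed to 4.25 to 40.03 CPM in heterozygous livers, highest in H12 (40.03) and H75 (21.96), and to 2.04 to 4.94 CPM in wild-type livers, lowest in W90, with Ly6g under 0.1 CPM. Erythroid markers, 7 of 7 measured, summed to 302 to 460 CPM in heterozygous livers, highest in H12, and to 270 to 412 CPM in wild-type livers, lowest in W90. Stellate and fibroblast markers summed to 92.2 CPM in H75 and 151 CPM in H12, the lowest libraries, and to 223 CPM in W90. Sums of Kupffer, endothelial and lymphocyte markers did not set H12 and H75 apart. W90 shared the high level of the members with H12 and H75 but not their scaling factors, neutrophil sums or stellate and fibroblast sums. Erythroid sums did not set H75 apart, at 394 CPM against 412 CPM in W76. Cholangiocyte markers summed to 93.7, 48.3 and 87.1 CPM in H12, H75 and W90, and the hepatocyte sum was highest in W90. The part of these measures in the members' difference was not tested.

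Gene length moved with the fold change as well. The members are short, with a median of 802 bases in the deposited lengths against 2748.5 over the genes tested. Of genes of at least 10 CPM outside the set, the 554 genes up to 1000 bases long had a median log2 fold change of 0.13, and 77.4% were above 0. The 58 members of that length and at least 10 CPM had a median of 0.24. Over length bins at the same minimum, the median of other genes was 0.18 at 400 to 600 bases, 0.07 at 1000 to 1500 bases and -0.04 above 5000 bases. In each length bin the median member lay above the median of the other genes, and within the set length and log2 fold change were hardly related (r = -0.12 over members). By library, the median short gene outside the set lay at -0.04, 0.23, -0.01 and 0.32 log2 units in H11, H12, H15 and H75. In W32, W33, W76 and W90 it lay at -0.03, -0.03, -0.03 and 0.10, so that short genes were high in the same H12 and H75. W32 and W76, which were low for the members, lay beside W33 in short genes. With the trend on length removed from each library, the member median was 0.16, 80 members were above 0 and 17 were higher at an unadjusted p under 0.05 (5.08% of all genes).

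**Figure D2:**
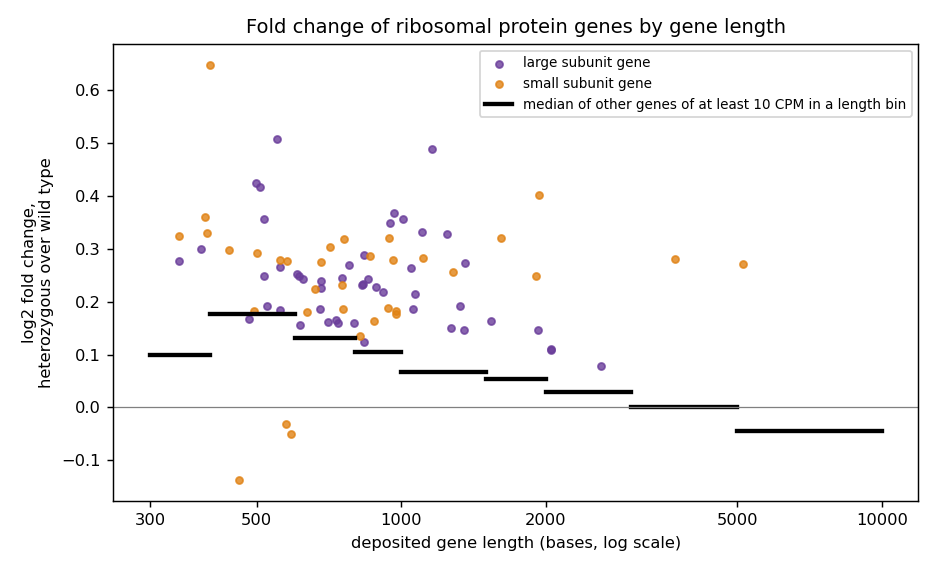
Points are the 83 tested ribosomal protein genes by deposited gene length in bases (log scale) and log2 fold change of heterozygous over wild type, coloured by subunit. Black bars are medians of other genes of at least 10 CPM in length bins, from 0.18 at 400 to 600 bases to -0.04 above 5000 bases. Most members lie above the bar of their length.

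The P stalk, the flexible arm of the large subunit that recruits translation factors, is built from Rplp0, Rplp1 and Rplp2, whose median log2 fold change was 0.37. Rplp1 had 241, 297, 241 and 318 CPM in heterozygous livers and 179, 229, 181 and 229 CPM in wild-type livers. The groups did not overlap, and the log2 fold change was 0.42 ± 0.13 (SE; edgeR adjusted p = 0.408). Rplp2, its partner in the stalk dimer, had 101, 130, 97.7 and 131 CPM in heterozygous and 76.3, 95.9, 76.9 and 107 CPM in wild-type livers. Here W90 lay above H11 and H15, and the log2 fold change was 0.37 ± 0.15 (SE; edgeR adjusted p = 0.488). Rplp0, the base of the stalk, had 344, 423, 341 and 416 CPM in heterozygous and 268, 329, 302 and 363 CPM in wild-type livers, again with an overlap at W90 (log2 fold change 0.27 ± 0.12 SE; edgeR adjusted p = 0.539).

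Over the whole large subunit, P stalk included, all 49 tested members were above 0, with a median log2 fold change of 0.23, and 8 were higher at an unadjusted p under 0.05. Rpl27a (chr7:109519147-109522367, plus strand), a protein of the large subunit whose promoter above holds a 20-base pyrimidine run, had the lowest p of any member. It had 74.9, 96.8, 75.2 and 99.96 CPM in heterozygous and 55.3, 69.6, 51.9 and 70.5 CPM in wild-type livers. Every heterozygous library exceeded every wild-type library, and the log2 fold change was 0.49 ± 0.14 (SE; edgeR adjusted p = 0.386). Rpl41, which encodes the shortest peptide of the ribosome, had 181, 257, 184 and 252 CPM in heterozygous and 148, 176, 147 and 183 CPM in wild-type livers. Only H11 lay inside the wild-type range, and the log2 fold change was 0.42 ± 0.14 (SE; edgeR adjusted p = 0.454). Rpl5 and Rpl11 join 5S ribosomal RNA in a particle that can also bind Mdm2. Both differed less between groups than Rpl27a and Rpl41, and Rpl11 stood at the large-subunit median. Rpl5 had 53.6, 56.9, 57.3 and 65.4 CPM in heterozygous and 44.8, 56.9, 49.6 and 64.6 CPM in wild-type livers (log2 fold change 0.11 ± 0.12 SE). Rpl11 had 173, 216, 184 and 234 CPM in heterozygous and 158, 173, 146 and 210 CPM in wild-type livers (0.23 ± 0.14 SE). Both gene ranges overlapped widely between groups.

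In the small subunit, 31 of 34 tested members were above 0, with a median log2 fold change of 0.28, and 9 were higher at an unadjusted p under 0.05. Rpsa (chr9:120127689-120132369, plus strand), a late-joining protein of the small subunit, had 346, 439, 345 and 437 CPM in heterozygous and 251, 310, 288 and 337 CPM in wild-type livers. The groups did not overlap, and the log2 fold change was 0.40 ± 0.13 (SE; edgeR adjusted p = 0.414). Rps2, which lies near the mRNA entry channel, was the member of highest level per length, with 696 CPM per kb in heterozygous and 573 CPM per kb in wild-type livers. By library Rps2 had 580, 728, 625 and 743 CPM in heterozygous and 494, 570, 533 and 608 CPM in wild-type livers, H11 alone lying below W90 (log2 fold change 0.28 ± 0.11 SE; edgeR adjusted p = 0.493). An exon of Rps2 lies under Snhg9 on the other strand, and the handling of strand in counting was not stated in these sources. Rps29, a zinc-binding protein, had 72.1, 93.9, 72.9 and 97.2 CPM in heterozygous and 57.7, 72.3, 54.5 and 77.2 CPM in wild-type livers. Its H11 and H15 values lay within the wild-type range, and the log2 fold change was 0.36 ± 0.15 (SE; edgeR adjusted p = 0.493). Rps15, second in level per length among small-subunit genes, had 369 CPM per kb in heterozygous and 302 CPM per kb in wild-type livers (0.29 ± 0.14 SE). Rps6, the substrate of S6 kinase, had 221, 269, 220 and 283 CPM in heterozygous and 167, 223, 210 and 286 CPM in wild-type livers. Its highest value was in W90, and its log2 fold change was 0.16 ± 0.16 (SE).

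Besides the paralog Rpl22l1, the other members at an unadjusted p under 0.05 were Rpl32, Rpl35 and Rpl14 of the large subunit and Rps21, Rps24, Rps26, Rps25, Rps20 and Rps10 of the small subunit, and these had log2 fold changes of 0.28 to 0.36. Rpl32 had 122, 141, 126 and 152 CPM in heterozygous and 95.2, 113, 88.3 and 126 CPM in wild-type livers. Rpl35 had 85.2, 120, 95.5 and 117 CPM in heterozygous and 72.0, 87.2, 75.001 and 94.4 CPM in wild-type livers. For Rpl32 W90 lay above H11 and, by a small margin, H15, and for Rpl35 it lay above H11 alone. Rps24, Rps26 and Rps10, in which mutations cause Diamond-Blackfan anaemia in humans, had similar profiles. Rps24 had 169, 208, 181 and 218 CPM in heterozygous and 138, 168, 131 and 186 CPM in wild-type livers, W90 lying above H11 and H15.

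Levels differed widely between members once set per length, a measure that depends on the deposited lengths. It also depends on how reads were divided between near-identical copies. After Rps2, the highest were Rplp1 (550 CPM per kb in heterozygous and 410 in wild-type livers) and Rpl41 (429 and 321 CPM per kb in heterozygous and wild-type livers). At the low end, Rpl12 had 6.82 CPM per kb in heterozygous and 5.43 CPM per kb in wild-type livers. Its counts by library were 5.10, 9.21, 8.28 and 11.3 CPM in heterozygous and 5.72, 6.22, 6.74 and 8.28 CPM in wild-type livers (log2 fold change 0.33 ± 0.23 SE). Rps12l1, annotated as a processed pseudogene, had 0.241, 1.23, 0.722 and 1.05 CPM in heterozygous and 0, 1.04, 0.501 and 0.530 CPM in wild-type livers, and its log2 fold change of 0.65 had an SE of 0.77. The deposited length of Rps15a, 5130 bases, is the longest of the set, and its log2 fold change of 0.27 ± 0.14 (SE) was near the member median.

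Groups that did not overlap were found for 3 members, Rpl27a, Rplp1 and Rpsa, all higher in heterozygous livers (3.61%, against 2.06% of all genes). No member was lower without overlap, against 2.32% of all genes. With library totals in place of scaling factors the member median was 0.15, that of all genes was -0.08, 79 members were above 0 and 5 were higher at an unadjusted p under 0.05 (2.92% of all genes).

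**Figure D3:**
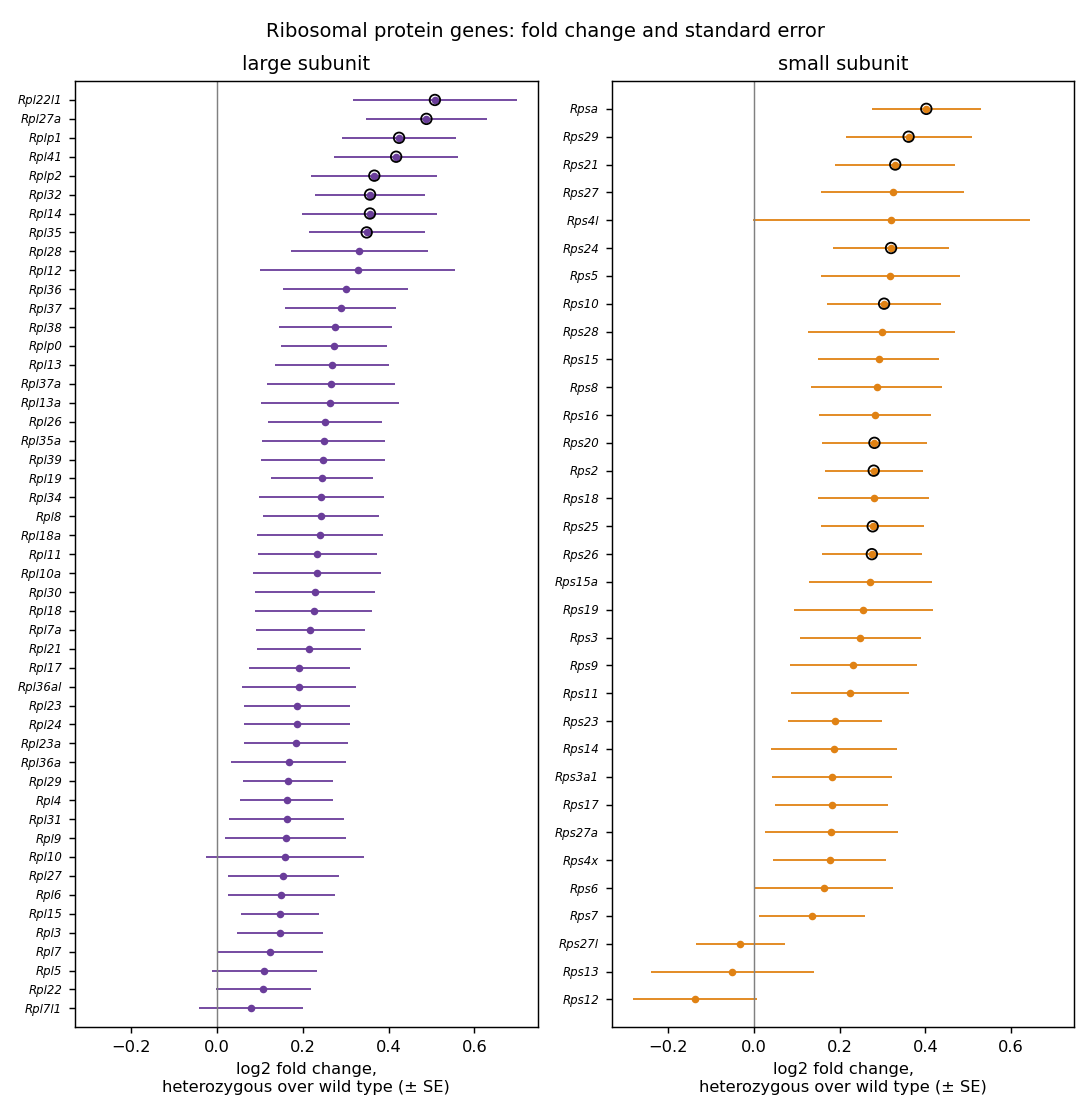
Log2 fold change of heterozygous over wild type (points) with its standard error (lines) for 49 large-subunit and 33 small-subunit genes, Rps12l1 left out. Circled points have an unadjusted p under 0.05, 8 in the large and 9 in the small subunit. Only Rps27l, Rps13 and Rps12 lie below 0.

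Proteins made as fusions with ubiquitin or a ubiquitin-like part were represented by Rps27a and Fau. Rps27a, a ubiquitin fusion of the small subunit, had 115, 148, 132 and 160 CPM in heterozygous and 98.4, 130, 107 and 154 CPM in wild-type livers (log2 fold change 0.18 ± 0.15 SE). Fau, whose name keeps it outside the rule although it encodes a ribosomal protein, had a log2 fold change of 0.24 ± 0.15 (SE). Rack1 had 211, 241, 214 and 244 CPM in heterozygous and 158, 209, 181 and 235 CPM in wild-type livers, so its groups overlapped at W90 (0.22 ± 0.13 SE).

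Paralogs of the canonical proteins lay on both sides of the member median. Rpl22l1, a paralog of Rpl22, had 13.5, 18.5, 13.8 and 19.8 CPM in heterozygous and 8.48, 11.4, 11.3 and 15.1 CPM in wild-type livers. W90 lay above H11 and H15, and the log2 fold change of 0.51 ± 0.19 (SE; edgeR adjusted p = 0.479) was the second highest of the tested members, after Rps12l1. Rpl22 itself had 66.5, 75.3, 61.7 and 77.1 CPM in heterozygous and 57.2, 64.4, 62.9 and 75.8 CPM in wild-type livers (0.11 ± 0.11 SE). The ratio of Rpl22l1 to Rpl22 was therefore 0.202, 0.246, 0.225 and 0.257 in heterozygous and 0.148, 0.176, 0.179 and 0.199 in wild-type livers. The groups did not overlap, by a small margin between H11 and W90. An exon of Rpl22l1 lies under the predicted gene Gm33051 on the other strand. Rps27l, a paralog of Rps27 known as a target of p53, had 78.4, 81.9, 84.9 and 100.4 CPM in heterozygous and 84.6, 83.7, 84.9 and 99.7 CPM in wild-type livers (-0.03 ± 0.10 SE). The ratio of Rps27l to Rps27 was 1.16, 1.01, 1.27 and 1.11 in heterozygous and 1.57, 1.28, 1.82 and 1.27 in wild-type livers, so only H15 and W90 crossed, by a small margin. Rpl36al kept the same ratio to Rpl36a, 2.24 ± 0.308 in heterozygous and 2.23 ± 0.212 in wild-type livers (SD, n = 4 each).

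**Figure D4:**
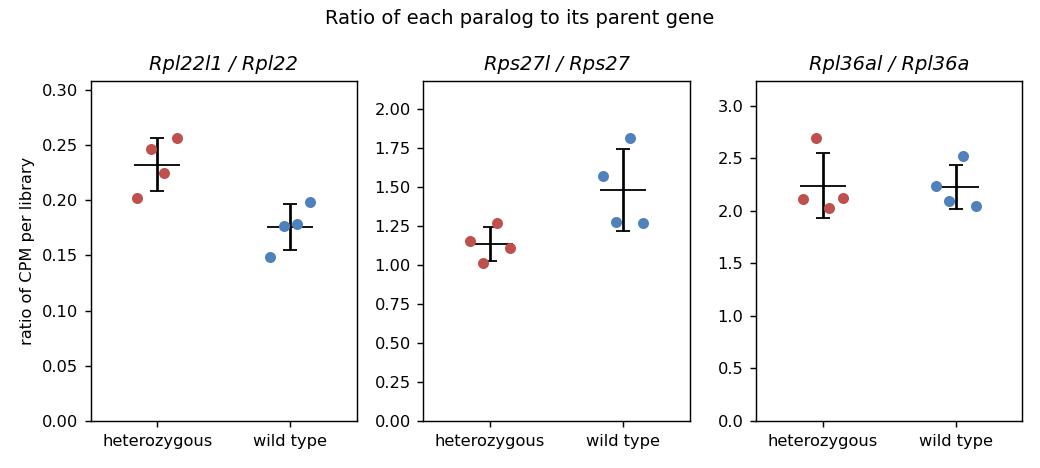
Ratio of the CPM of a paralog to that of its parent gene in each library (points), with the mean and SD (lines, n = 4 per group), heterozygous on the left and wild type on the right of each panel. The ratio of Rpl22l1 to Rpl22 is 0.202 to 0.257 in heterozygous and 0.148 to 0.199 in wild-type libraries, while that of Rpl36al to Rpl36a overlaps.

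Rpl7l1 and Rps4l were the remaining paralogs with enough counts. Rpl7l1, a relative of Rpl7, had 46.7, 61.1, 53.0 and 62.2 CPM in heterozygous and 52.2, 44.6, 54.9 and 59.5 CPM in wild-type livers (log2 fold change 0.08 ± 0.12 SE). Its direction turned (-0.015) when library totals were used for scaling, and its correlation with the median member, 0.48, was the third lowest of the set. Rps4l, annotated as a transcribed processed pseudogene, had 10.4, 12.5, 9.69 and 21.2 CPM in heterozygous and 7.08, 11.3, 7.55 and 17.1 CPM in wild-type livers (0.32 ± 0.32 SE), H75 and W90 being high in their groups. Its log2 fold change was 0.015 without H75 and 0.63 without W90.

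The 2 members of lowest fold change, Rps12 and Rps13, had most of their counts elsewhere, and both were chosen after their values were seen. The table lists 300 named pseudogenes of 61 members, 122 of them with counts. For 13 members more than 10% of the summed CPM lay in such pseudogenes, and for 4 of them, Rps12, Rpl10, Rpl14 and Rps13, more than 50%. For these genes the count depends on how reads were divided between near-identical copies, so their own values are uncertain. Rpl14 and Rpl10 were not among the lowest. Rpl14 had a log2 fold change of 0.36 alone and 0.31 summed with its copies, and Rpl10 had 0.16 and 0.15. Rps12 had 5.82, 6.24, 5.23 and 5.70 CPM in heterozygous and 5.65, 6.58, 5.47 and 7.60 CPM in wild-type livers, a low level for a ribosomal protein gene (log2 fold change -0.14 ± 0.15 SE). Its copy Rps12-ps3 (chr19:59322290-59322783), which the annotation calls protein-coding, had 135, 163, 136 and 151 CPM in heterozygous and 109, 137, 107 and 143 CPM in wild-type livers. The sum over Rps12 and its copies was 152 ± 13.8 CPM in heterozygous and 131 ± 19.4 CPM in wild-type livers (SD, n = 4 each). On that sum the log2 fold change was 0.22 ± 0.12 (SE; edgeR adjusted p = 0.601), and the correlation with the median member was 0.94, against 0.41 for Rps12 alone.

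Rps13 gave a similar picture. It had 26.9, 41.5, 27.2 and 34.9 CPM in heterozygous and 27.0, 27.0, 39.8 and 41.4 CPM in wild-type livers, with H12, H75, W76 and W90 high (log2 fold change -0.05 ± 0.19 SE). With its copies, mainly Rps13-ps1, it had 75.1, 90.9, 76.8 and 98.8 CPM in heterozygous and 61.6, 72.6, 64.1 and 94.4 CPM in wild-type livers. The log2 fold change of that sum was 0.22 ± 0.15 (SE; edgeR adjusted p = 0.676), and the correlation with the median member was 0.97, against 0.35 for Rps13 alone. Rpl10, with 62.0% of the summed CPM in copies, had a correlation with the median member of 0.97 when summed and 0.84 alone. Of the 13 members with more than 10% in copies, the correlation fell on summing for 3. These were Rpl27 (0.94 alone, 0.89 summed), Rpl15 (0.96, 0.94) and Rps23 (0.985, 0.980), and it rose for the others. Over all members, adding the named copies left 82 of 83 above 0, with Rps27l as the one below 0. The member median in that fit was 0.24, against 0.01 over all genes.

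**Figure D5:**
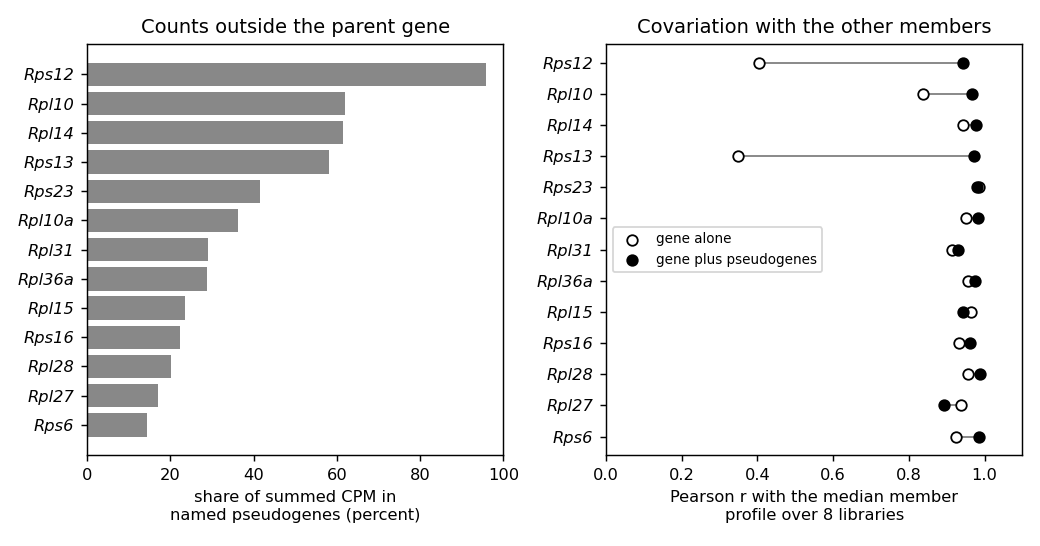
Left, share of the summed CPM that lies in named pseudogenes for the 13 ribosomal protein genes with more than 10%, from 95.7% for Rps12 to 14.4% for Rps6. Right, Pearson r with the median member profile over 8 libraries for the gene alone (open) and with its named pseudogenes (filled), which is 0.41 and 0.94 for Rps12 and 0.35 and 0.97 for Rps13. For Rpl27, Rpl15 and Rps23 it is lower with the pseudogenes.

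Genes around the ribosome were described by lists, in each of which edgeR called 0 genes. Other mRNAs with a TOP motif, such as those of elongation factors, had a median log2 fold change of 0.09, with 17 of 19 above 0 and 1, Eef1g, higher at an unadjusted p under 0.05. Eef1g and Eef1b2, subunits of the exchange factor for eEF1A, had 0.26 ± 0.11 and 0.27 ± 0.12 (SE). Noncoding snoRNA hosts with a TOP motif had a median of 0.08, with 8 of 10 above 0 and 0 at that p, and ranged on both sides of 0 (Snhg5 0.22 ± 0.18, Snhg20 -0.22 ± 0.20, SE). Of 48 assembly factors, 42 were above 0, with a median of 0.18 and 3 higher at an unadjusted p under 0.05. Rrs1, which brings the 5S particle into the early large subunit, had 21.8, 26.1, 21.2 and 22.1 CPM in heterozygous and 16.2, 15.3, 18.5 and 16.04 CPM in wild-type livers. Its groups did not overlap, and the log2 fold change was 0.47 ± 0.10 (SE; edgeR adjusted p = 0.315). Imp4, of the early small-subunit processome, had 0.31 ± 0.09 (SE), also without overlap, and the third gene was Gtpbp4, a GTPase of large-subunit assembly (0.34 ± 0.14 SE).

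A list of subunits and transcription factors of RNA polymerases I and III, which make ribosomal and transfer RNA, had a median log2 fold change of 0.07. Of its 30 tested genes, 22 were above 0. Znrd1 (0.45 ± 0.18 SE) and Polr3d (0.42 ± 0.19 SE) were the 2 higher at an unadjusted p under 0.05. Of all genes tested, 4.90% were higher and 4.44% lower at that p. Regulators of TOP mRNAs and mTORC1 had a median of 0.04, with 15 of 24 above 0, 2 higher (Myc and Eif4ebp1) and 1 lower at that p. Myc, which drives ribosome genes, had 5.10, 16.5, 7.94 and 4.30 CPM in heterozygous and 2.86, 5.29, 2.004 and 2.91 CPM in wild-type livers, high in H12 and overlapping at W33 (1.37 ± 0.44 SE; edgeR adjusted p = 0.425). Without H12 its log2 fold change was 0.82. Eif4ebp1, the translation repressor 4E-BP1, had 26.2, 35.5, 24.4 and 39.2 CPM in heterozygous and 21.1, 27.7, 18.0 and 24.3 CPM in wild-type livers (0.46 ± 0.18 SE; edgeR adjusted p = 0.482). Mtor, the kinase of mTORC1, was the 1 lower gene, with 39.0, 32.8, 38.0 and 32.3 CPM in heterozygous and 43.4, 41.6, 40.4 and 39.8 CPM in wild-type livers. Its groups did not overlap, H12 and H75 being the lowest, and the log2 fold change was -0.22 ± 0.09 (SE; edgeR adjusted p = 0.498). A list of short genes of oxidative phosphorylation and housekeeping, chosen for their length, had a median of 0.16, with 48 of 49 above 0 and 2 higher at an unadjusted p under 0.05, Atpif1 (0.31 ± 0.11 SE) and Ndufb7 (0.29 ± 0.13 SE). With the length trend removed its median was 0.06, that of the assembly factors 0.17 and that of the members 0.16. Long RNAs held in the nucleus had a median of -0.05, or 0.08 with the length trend removed, with 2 of 7 above 0 and 1 higher at that p, Meg3, at 3.73, 4.39, 0.8496 and 8.25 CPM in heterozygous and 0.852, 0.858, 1.70 and 0.567 CPM in wild-type livers. Tug1, of the same list, had -0.15 ± 0.10 (SE).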

How the data were processed

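Liver RNA of 4 heterozygous and 4 wild-type mice was extracted with Trizol, depleted of ribosomal RNA and sequenced on an Illumina instrument, per the labels' protocols. Per the submitters' processing notes, mm10 was the build, and SAMtools 1.9, GATK 3.8, Bowtie2 2.2.9 and fastp 0.19.5 were used, in roles not stated. The program that assigned reads to genes, and strand handling, were not stated in these sources. The authors deposited estimated counts per gene, not normalized, and a comparison table with p-value, adjusted p-value, fold (ratio) and log2 fold change, per the file headers. Its direction was read from the data, since 99.5% of its log2 fold changes had the same sign as heterozygous over wild type here.

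Estimated counts were rounded, filtered with filterByExpr (14261 of 56077 rows, which include 541 unannotated loci) and scaled by TMM. Group was the only term in the quasi-likelihood test (edgeR 4.0.16, R 4.3.3), with Benjamini-Hochberg adjustment over all genes tested. The standard error is the log2 fold change over the square root of F. Alternatives were DESeq2 1.42.0, limma-voom (limma 3.58.1), other scalings and filters, removal of a length trend (spline, 4 degrees of freedom), summing with named pseudogenes and leaving out each library. Code was tested on simulated data. Library profiles used log2 CPM with a prior count of 2. Sequences are RefSeq promoters on GRCm38.p6, matched by symbol, and gene coordinates are GENCODE on GRCm38, the assembly that mm10 denotes.

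The members and lists were chosen with earlier results of these data known, so no p-value was computed over a list. Named genes were Eif2s1, the 3 members of lowest p and the 2 of highest CPM per kb in each subunit, members with a given role, paralogs, the 2 of lowest p in each other list, and the 5 genes most and least like the median member. Rps12, Rps13 and other genes were named after their values were seen. Some genes that the rule names are not reported here.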

Additional observations from a re-analysis of the deposited data

Results flagged for a closer look

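In the wild-type group, Rps27l in library W90 stood at 99.7 CPM, apart from the other 3 wild-type libraries, which had 83.7 to 84.9 CPM. The gap to the nearest library was 0.924 of the whole range of the group, above Dixon's critical value for 4 samples. Among 78 groups of values examined this was the 1 flagged, and chance alone flags about 1 in 20 groups. W90 was also the wild-type library in which the members as a whole were highest, and H75, at 100.4 CPM, was the highest heterozygous library for the same gene.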

How the results depend on the processing

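No paired analysis was possible because the columns carry no replicate number. The count of 0 members called held under each of 20 other settings of the fit, and at an adjusted p under 0.1 in the edgeR fit of all libraries. In DESeq2 the lowest adjusted p of a member was 0.0976 (Rpl27a, 0.0976 to 0.771 over all alternatives). The count at an unadjusted p under 0.05, 17 in all 8 libraries, was 4 to 57 when libraries were left out in turn, 5 with library totals only, and 13 to 23 under the other settings. Eif2s1 was past the threshold in DESeq2 alone (log2 fold change -0.44, adjusted p = 0.0159, against 0.0159 to 0.633 over all alternatives), and lay between -0.51 and -0.39 with a library left out. DESeq2 also called Rrs1 and Meg3, and Meg3 was called without H15. Rpl7l1 turned to -0.015 with library totals only. Rps12 (0.22) and Rps13 (0.22) turned positive when summed with their copies. With a library left out, Rps27l ran from -0.11 to 0.031, above 0 without H11 or W90, and Rps13 from -0.19 to 0.060, above 0 without H11, H15, W76 or W90. The difference in the members' share of counts, 0.119 percentage points, was 0.0696 to 0.191 with a library left out. The causes were not tested. Depth limits the 5 untested members and Rps12l1.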
